A study of Mus musculus with 6 samples.

Results

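The chemokines CX3CL1, CXCL1, CXCL2, CXCL3, CXCL5, CXCL8 and CCL20, the cytokines IL6 and IL1A, and PTGS2, the enzyme also called COX-2, form a group of inflammatory mediators that carcinoma cells can make. Their transcripts were followed in tumours of the human lung adenocarcinoma line NCI-H2228, which carries the EML4-ALK fusion, grown under the skin of SCID mice. The members were taken by gene symbol: 18 probe sets were annotated to 1 of these 10 genes alone, out of 54675 probe sets on the array and 19775 genes with a probe set of their own. The tumour-bearing mice were dosed by mouth with vehicle or with CH5424802 at 4 mg/kg or 20 mg/kg, and tumours were taken 6 h after the dose. CH5424802 is the ALK kinase inhibitor later named alectinib. All groups thus share the cell line, the host and the sampling time and differ in dose. Each of the 3 groups had 2 arrays, and since no label says that these came from separate animals, a p-value covers only array-to-array spread, which may be technical. SCID mice lack mature T and B cells and keep myeloid cells. The array carries probes for human genes, and how mouse transcripts of the host read on it was not measured.

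Chemokines are small secreted proteins that draw leukocytes along a gradient through G protein-coupled receptors. CXCL1, CXCL2, CXCL3, CXCL5 and CXCL8 share a Glu-Leu-Arg motif before their first cysteines, act through CXCR2 and attract neutrophils. CXCL8, also called interleukin 8, acts on CXCR1 too and has no mouse counterpart. CX3CL1, or fractalkine, is made as a membrane-anchored protein that proteases can release, and CCL20 attracts cells that carry CCR6. IL6 signals through IL6R and IL6ST to JAK kinases and STAT3, IL1A through IL1R1 and IL1RAP to NF-kB, and PTGS2 makes the precursor of prostaglandins from arachidonic acid. NF-kB, AP-1 and C/EBP factors induce most of these genes, and AU-rich elements in their transcripts make many of them short-lived.

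At 20 mg/kg, 5 of the 10 genes fell against vehicle and none rose: CX3CL1, IL6, CXCL8, PTGS2 and CXCL1, with folds in the brightest probe set from 12.4 for CX3CL1 to 2.79 for CXCL1. CXCL2, CXCL3, CXCL5, CCL20 and IL1A did not pass the test. None of the 10 genes passed at 4 mg/kg. Over all 10271 tested genes 2.07% were called lower and 2.26% higher at 20 mg/kg against vehicle. The median log2 change was -1.14 over the 10 genes and 0 over all genes. The 10 genes were chosen with earlier results of these data known. Comparisons with all genes, here and below, thus describe them and do not test the group. The test was limma's moderated test on log2 intensity over all 6 arrays, adjusted over all tested genes by the Benjamini-Hochberg method, with a threshold of 0.05. All 10 genes passed the level filter, a mean log2 intensity of at least 4 over all arrays. IL6 passed it through the vehicle and 4 mg/kg groups, as its mean at 20 mg/kg was 3.74.

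**Figure D1:**
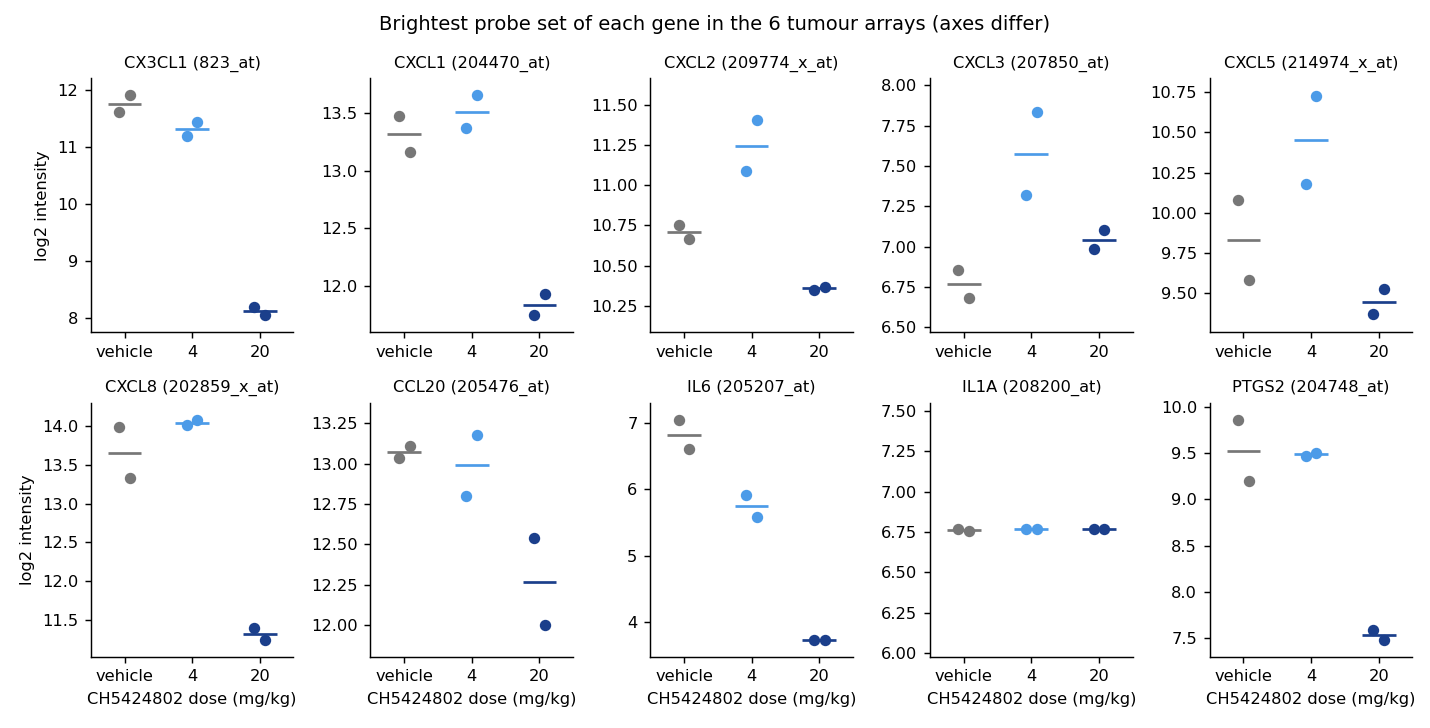
Log2 intensity of the brightest probe set of each of the 10 genes (y axes differ between panels) in the 2 arrays each of vehicle, 4 mg/kg and 20 mg/kg; points are arrays and bars are group means. CX3CL1, CXCL1, CXCL8, IL6 and PTGS2 lie lowest in both 20 mg/kg arrays, CXCL2, CXCL3 and CXCL5 are highest in both 4 mg/kg arrays, and IL1A is flat.

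Taking the brightest probe set of each gene, the fractalkine gene CX3CL1 had the largest log2 change of the group. A dimmer probe set of CXCL8 changed more, and with the probe sets of each gene averaged CXCL8 was at -3.70 and CX3CL1 at -3.31. Its brightest probe set, 823_at, read 3128 and 3829 in the vehicle tumours, 2350 and 2758 at 4 mg/kg, and then 294 and 266 at 20 mg/kg. The 3 groups did not overlap, and most of the difference lay between the 2 doses. At 20 mg/kg CX3CL1 was 12.4-fold lower than with vehicle (log2 change -3.63, SE 0.15, adjusted p = 0.0112). It was 9.10-fold lower than at 4 mg/kg (log2 change -3.19, SE 0.15, adjusted p = 0.0313), the 1 member called in that comparison. At 4 mg/kg its log2 change against vehicle was -0.44, with a 95% interval from -0.87 to -0.02 (adjusted p = 0.28). A second probe set, 203687_at, was dimmer, at 68.8 and 96.8 with vehicle, 56.6 and 59.0 at 4 mg/kg, and then 10.8 and 9.77 at 20 mg/kg, where the lowest value on the array was 4.58. In the fit over probe sets it fell too (log2 change -2.99, SE 0.19, adjusted p = 0.0244), and its order of groups was that of 823_at. Its mean log2 level at 20 mg/kg, 3.36, lies under the filter level of 4, which 203687_at passed through the other groups. The size of its fold is thus uncertain.

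The cytokine gene IL6 also stepped down at each dose. Its 1 probe set read 132 and 97.1 with vehicle, 60.5 and 47.9 at 4 mg/kg and 13.3 in both 20 mg/kg arrays. No group overlapped another. IL6 was 8.48-fold lower at 20 mg/kg than with vehicle (log2 change -3.08, SE 0.20, adjusted p = 0.021). Its log2 change at 4 mg/kg was -1.07 (95% interval -1.66 to -0.49), which did not pass (adjusted p = 0.171). The values at 20 mg/kg were exactly equal, and 32.3% of tested genes had such a tie in at least 1 group. The equal 20 mg/kg pair enters the pooled estimate as no spread, which lowers the SE of IL6 and with it the adjusted p. Its mean log2 level at 20 mg/kg, 3.74, lies under the level of 4 used as a filter, which IL6 passed through the other groups. How much of that reading is background was not measured, so the size of the fold is uncertain, and on the log2(value + 16) scale the change was -2.14 (adjusted p = 0.0261).

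Among the neutrophil-attracting CXC chemokines, CXCL8 and CXCL1 fell at 20 mg/kg. CXCL8 probe set 202859_x_at read 16261 and 10311 with vehicle, 16534 and 17329 at 4 mg/kg, and then 2694 and 2418 at 20 mg/kg. Both 20 mg/kg arrays lay below all others, and the 4 mg/kg arrays lay above both vehicle arrays. The level at 20 mg/kg was 5.07-fold lower than with vehicle (log2 change -2.34, SE 0.25, adjusted p = 0.0379). CXCL1 read 11382 and 9190 with vehicle, 10566 and 12870 at 4 mg/kg, and then 3443 and 3910 at 20 mg/kg. It was 2.79-fold lower at 20 mg/kg than with vehicle (log2 change -1.48, SE 0.17, adjusted p = 0.0403), while the vehicle and 4 mg/kg arrays overlapped.

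CXCL2, CXCL3 and CXCL5, which attract neutrophils through the same receptor, did not pass in any comparison. CXCL2 probe set 209774_x_at read 1726 and 1621 with vehicle, 2176 and 2704 at 4 mg/kg, and then 1304 and 1323 at 20 mg/kg. CXCL5 probe set 214974_x_at read 1082 and 767 with vehicle, 1160 and 1692 at 4 mg/kg, and then 662 and 738 at 20 mg/kg. Both genes were thus highest at 4 mg/kg and lowest at 20 mg/kg. CXCL3 read 116 and 103 with vehicle, 160 and 228 at 4 mg/kg, and then 127 and 137 at 20 mg/kg, so that here vehicle was lowest. Against vehicle, the log2 change at 20 mg/kg was -0.35 for CXCL2 (95% interval -0.70 to -0.0022), 0.27 for CXCL3 (-0.31 to 0.86) and -0.38 for CXCL5 (-1.17 to 0.41). The adjusted p was 0.204 for CXCL2, 0.50 for CXCL3 and 0.497 for CXCL5. For CXCL5 the interval holds changes of more than 2-fold down, so these arrays do not settle its direction.

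PTGS2, the inducible cyclooxygenase, fell at 20 mg/kg. Probe set 204748_at read 926 and 586 with vehicle, 708 and 726 at 4 mg/kg, and then 192 and 179 at 20 mg/kg. Its level there was 3.97-fold below that with vehicle (log2 change -1.99, SE 0.25, adjusted p = 0.045). Probe set 1554997_a_at read 796 and 684 with vehicle, 342 and 468 at 4 mg/kg, and then 84.4 and 82.3 at 20 mg/kg. In the fit over probe sets its level was 8.85-fold below vehicle (log2 change -3.15, SE 0.19, adjusted p = 0.0213). The 4 mg/kg arrays lay within the range of the vehicle arrays in the first and below both vehicle arrays in the second. Adjusted over all 16900 tested probe sets, 204748_at had an adjusted p of 0.0516, above the threshold.

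CCL20, the CCR6 ligand, read 8387 and 8860 with vehicle, 7142 and 9290 at 4 mg/kg, and then 5941 and 4087 at 20 mg/kg. Both 20 mg/kg arrays were lowest, but they lay far apart, and the log2 change of -0.81 against vehicle did not pass (95% interval -1.51 to -0.11, adjusted p = 0.167). With the arrays centred on their medians it did pass, at -0.84 (adjusted p = 0.0232). IL1A, the alpha form of interleukin 1, read 109 in 5 of the 6 arrays and 108 in vehicle replicate 2. Its log2 change at 20 mg/kg against vehicle was 0.01, with a 95% interval from -0.05 to 0.06. Its second probe set, 210118_s_at, read between 53.9 and 60.1 in the 6 arrays. Both IL1A probe sets hold exact ties between arrays, so these narrow intervals rest partly on ties.

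**Figure D2:**
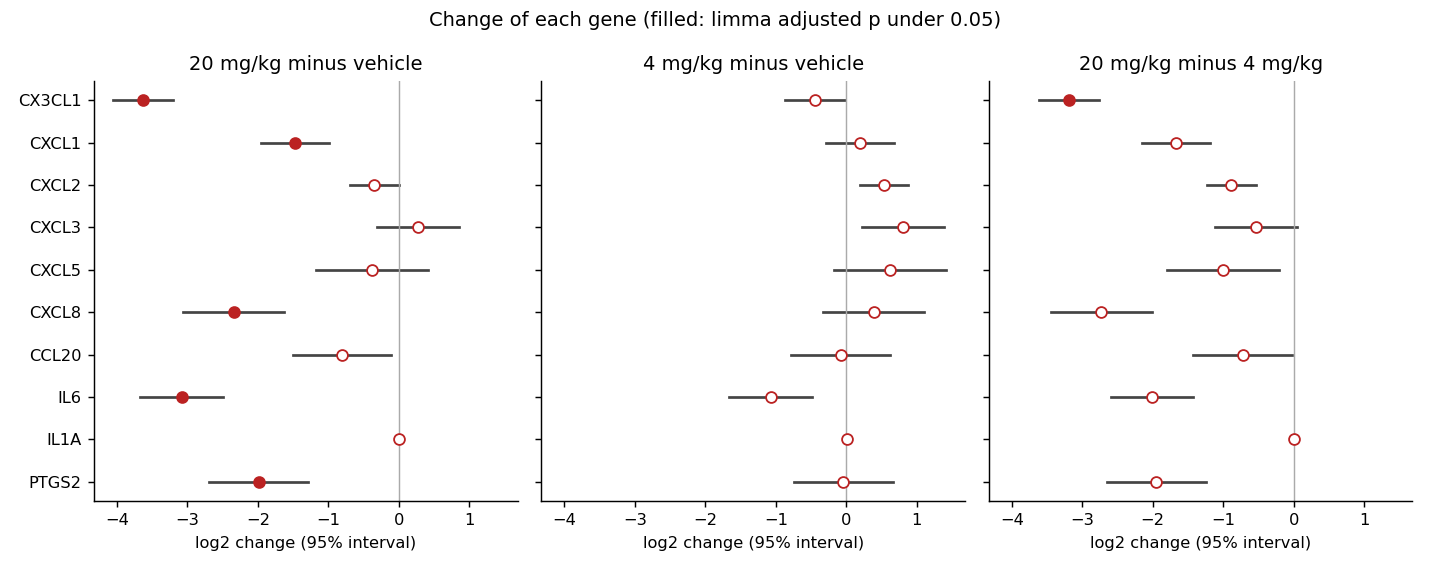
Log2 change of each of the 10 genes (brightest probe set) at 20 mg/kg minus vehicle, 4 mg/kg minus vehicle and 20 mg/kg minus 4 mg/kg, with limma's 95% intervals; filled points have an adjusted p under 0.05. In the first panel 5 genes are filled, in the second none and in the third CX3CL1 alone.

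The order of the doses differed among the members. At 20 mg/kg, 8 of the 10 genes had both arrays below both vehicle arrays, as 25.9% of all tested genes had. The exceptions were CXCL3 and IL1A. Against 4 mg/kg, 9 of the 10 genes had both 20 mg/kg arrays lower, all but IL1A, beside 22.8% of all tested genes. At 4 mg/kg, CX3CL1 and IL6 had both arrays below both vehicle arrays (2 of 10, beside 14.8% of all tested genes). CXCL2, CXCL3, CXCL5 and CXCL8 had both 4 mg/kg arrays above both vehicle arrays (4 of 10, beside 22.8% of all tested genes). For CXCL2, CXCL5 and CXCL8 this did not hold in their other probe sets. Those of CXCL2, 1569203_at and 230101_at, read between 4.75 and 6.74 in every array and were not tested.

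Comparing 4 mg/kg with vehicle, limma called none of the 10 genes. At an unadjusted p under 0.05 there were 2 lower, CX3CL1 and IL6, and 2 higher, CXCL2 and CXCL3, beside 4.76% of all genes lower and 12.2% higher. Few genes were called at this dose at all, with 0.0292% lower and 0.0292% higher. The log2 changes were 0.54 for CXCL2 (adjusted p = 0.19), 0.81 for CXCL3 (adjusted p = 0.212), 0.62 for CXCL5 (adjusted p = 0.397) and 0.39 for CXCL8 (adjusted p = 0.542). For CXCL1, CCL20 and PTGS2 they were 0.19, -0.08 and -0.04.

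The levels at 20 mg/kg were also set against those at 4 mg/kg, with the vehicle arrays entering the estimate of the spread. Here CX3CL1 was the 1 of 10 genes called, and it was lower. Over all genes 0.243% were called lower and 0.127% higher. The median log2 change was -1.34 over the 10 genes and -0.01 over all genes. CXCL8 was at -2.73 (adjusted p = 0.0791), IL6 at -2.01 (adjusted p = 0.0812), CXCL1 at -1.67 (adjusted p = 0.0812) and PTGS2 at -1.95 (adjusted p = 0.104). These values did not pass, yet the upper ends of their 95% intervals lay between -2.02 for CXCL8 and -1.19 for CXCL1. The 20 mg/kg level of IL6 lay under the filter level, so the size of its change is uncertain. CXCL2 was at -0.89 (adjusted p = 0.118), CXCL5 at -1.0 (adjusted p = 0.274), CCL20 at -0.73 (adjusted p = 0.352) and CXCL3 at -0.53 (adjusted p = 0.419).

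Several members had more than 1 probe set, and these were fitted together over all 16900 single-gene probe sets that passed the level filter. Of the 15 member probe sets tested, 7 were lower at 20 mg/kg than with vehicle, beside 1.53% of all tested probe sets. They were both probe sets of CX3CL1 and of CXCL8 and 1 each of CXCL1, IL6 and PTGS2. The dimmer CX3CL1 set and the IL6 set lay under the filter level at 20 mg/kg and passed it through the other groups. None was called lower at 4 mg/kg than with vehicle, where limma called 0% of all probe sets lower. Of the 15, 3 were lower and 2 higher at an unadjusted p under 0.05, beside 4.49% and 10.7% of all tested probe sets. Against 4 mg/kg, 1 of the 15 was lower at 20 mg/kg, 823_at of CX3CL1, beside 0.172% of all probe sets. The other 3 member probe sets, 1569203_at and 230101_at for CXCL2 and 207852_at for CXCL5, read between 4.75 and 6.74 in every array and were not tested.

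CXCL8 was the member whose probe sets differed most in size of change. Probe set 211506_s_at read 5056 and 4305 with vehicle, 2270 and 2927 at 4 mg/kg, and then 214 and 92.5 at 20 mg/kg. Its groups did not overlap and stepped down with dose, unlike those of 202859_x_at. Its log2 change at 20 mg/kg against vehicle was -5.05 (SE 0.47, adjusted p = 0.0378), a 33.2-fold difference against 5.07-fold in 202859_x_at. At 4 mg/kg the log2 change was -0.86 in 211506_s_at and 0.39 in 202859_x_at, neither past the test. For PTGS2 the same held in smaller measure, with -0.88 in 1554997_a_at and -0.04 in 204748_at at 4 mg/kg. The second CXCL5 probe set, 215101_s_at, read between 36.9 and 67.0 and was at -0.09 at 4 mg/kg. The ending _x_at or _s_at of a probe set name marks sets whose probes may match other transcripts or several transcripts. Why the probe sets of a gene differ was not tested.

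**Figure D3:**
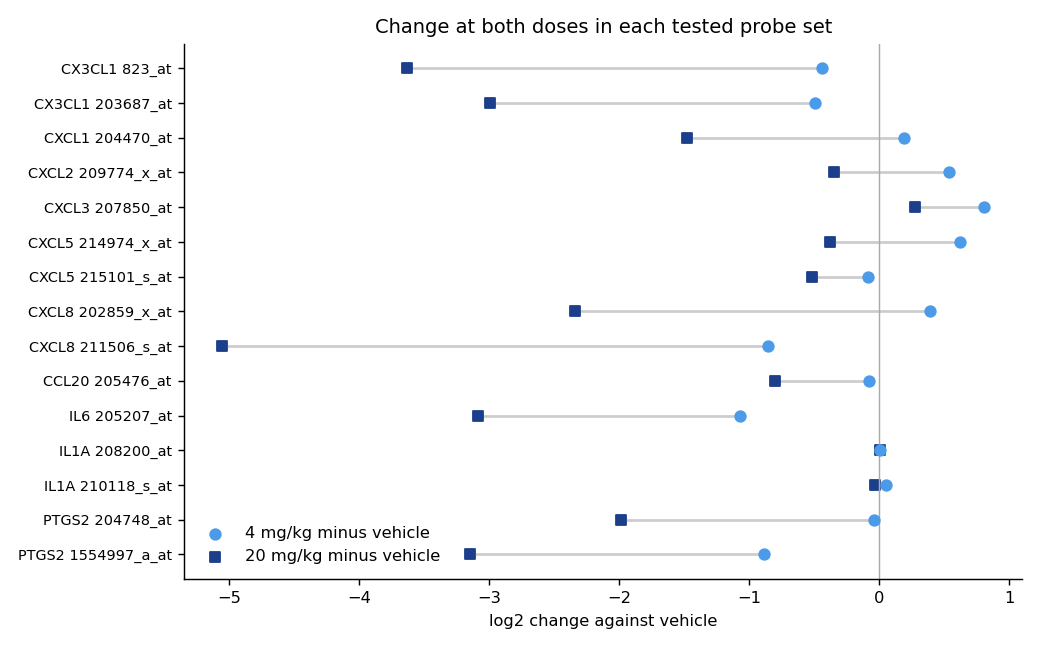
Log2 change against vehicle at 4 mg/kg (circles) and at 20 mg/kg (squares) in each of the 15 tested probe sets of the 10 genes. CXCL8 211506_s_at shows the largest change, -5.05 at 20 mg/kg, and the probe sets of CXCL5, CXCL8 and PTGS2 differ most at 4 mg/kg.

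Ranked by log2 change at 20 mg/kg against vehicle among the 10271 tested genes, CX3CL1 stood at position 4 from the lowest, IL6 at 9, CXCL8 at 20, PTGS2 at 35 and CXCL1 at 73. CCL20 stood at 343, CXCL5 at 1293, CXCL2 at 1439, IL1A at 6141 and CXCL3 at 8323. At 20 mg/kg against 4 mg/kg, CX3CL1 stood at 4, CXCL8 at 5, IL6 at 19, PTGS2 at 25 and CXCL1 at 36. CXCL5 followed at 132 and CXCL2 at 187 there. Both comparisons share the 20 mg/kg arrays, where IL6 lay under the filter level, so its positions are uncertain.

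**Figure D4:**
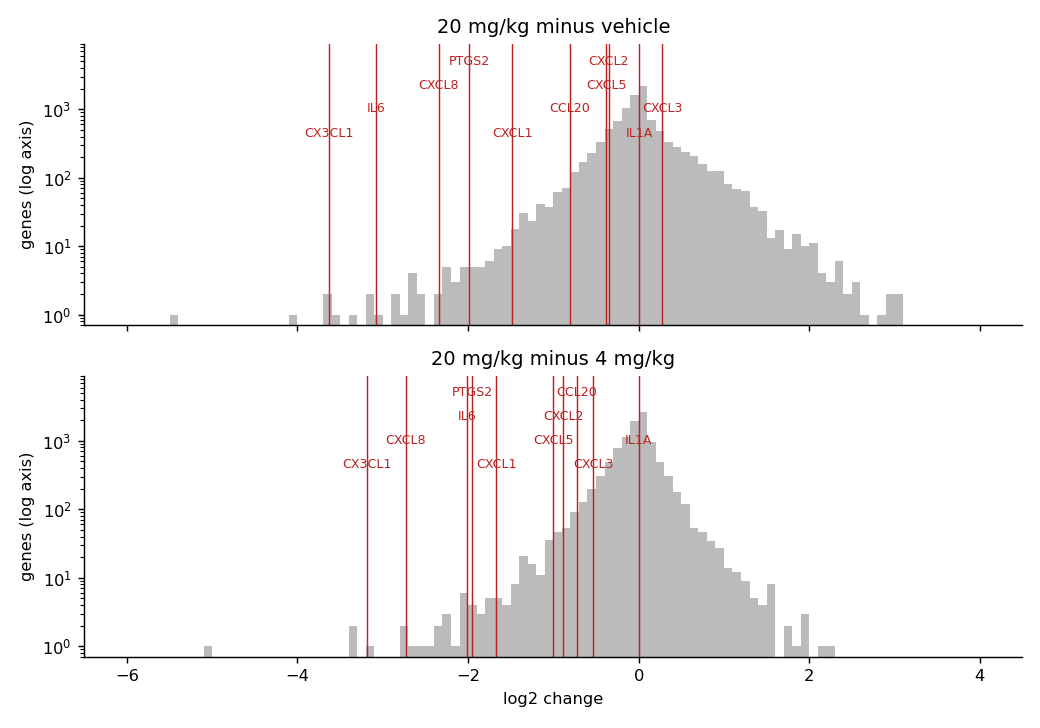
Distribution of the log2 change over all 10271 tested genes (grey, log axis) at 20 mg/kg minus vehicle and at 20 mg/kg minus 4 mg/kg, with the 10 genes marked. CX3CL1, IL6, CXCL8, PTGS2 and CXCL1 lie in the lower tail of both.

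The receptors of these chemokines were mostly dim in the tumours. CXCR1 and CCR6 were listed at the lowest value in every array, CX3CR1 reached at most 5.38 and CXCR2 7.49, and none of these was tested. Of 22 chemokine receptors 5 passed the level filter and none passed the test in any comparison by limma. At an unadjusted p under 0.05, 1 of the 5 was higher at 20 mg/kg than with vehicle and 1 at 4 mg/kg. By that measure 12.7% of all tested genes were higher and 11.5% lower at 20 mg/kg, and 12.2% higher at 4 mg/kg. Both are ACKR3, an atypical receptor that takes up CXCL12, named after its values were seen. It read 227 and 264 with vehicle, 511 and 764 at 4 mg/kg, and then 874 and 1292 at 20 mg/kg (log2 change 2.12 at 20 mg/kg, adjusted p = 0.0566). Of 34 other chemokine ligands 6 were tested and none passed, with a median log2 change of -0.07 at 20 mg/kg. Among them CXCL6, a further neutrophil attractant, read 2522 and 1571 with vehicle, 2272 and 3587 at 4 mg/kg, and then 2003 and 1489 at 20 mg/kg. CCL28 was the 1 of these 6 higher at 20 mg/kg than with vehicle at an unadjusted p under 0.05, and none was lower. Its log2 change by limma was 0.66 (adjusted p = 0.0884).

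Both chains of the IL6 receptor read higher at 20 mg/kg than with vehicle, but neither passed the test. IL6R read 220 and 380 with vehicle, 387 and 487 at 4 mg/kg, and then 1128 and 1147 at 20 mg/kg (log2 change 1.97 at 20 mg/kg, adjusted p = 0.0639). IL6ST, the shared signal-transducing chain, read 7980 and 6222 with vehicle, 9368 and 10189 at 4 mg/kg, and then 10950 and 11047 at 20 mg/kg (log2 change 0.64, adjusted p = 0.102). Both genes were higher in each treated array than in either vehicle array. Over all tested genes 24.5% had both 20 mg/kg arrays above both vehicle arrays, and 22.8% had both 4 mg/kg arrays above them. Of 11 genes of the IL6 family and its receptors 5 were tested and none passed in any comparison. At an unadjusted p under 0.05, 3 of the 5 were higher at 20 mg/kg than with vehicle, IL6R, IL6ST and LIFR, beside 12.7% of all tested genes. LIFR, the receptor of leukemia inhibitory factor, had a log2 change of 3.09 (SE 0.52, adjusted p = 0.0706). It read 223 and 85.6 with vehicle, so that its vehicle arrays lay far apart, 436 and 550 at 4 mg/kg, and then 1177 and 1179 at 20 mg/kg.

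In the interleukin 1 system IL1RAP, the chain that IL1R1 needs to signal, fell at 20 mg/kg. It read 384 and 318 with vehicle, 310 and 318 at 4 mg/kg, and then 125 and 144 at 20 mg/kg (log2 change -1.38, SE 0.13, adjusted p = 0.0318). IL1R1 read 2793 and 4169 with vehicle, 1801 and 2666 at 4 mg/kg, and then 992 and 845 at 20 mg/kg (log2 change -1.90, adjusted p = 0.0662). No group of this receptor overlapped another. The antagonist IL1RN read 334 and 981 with vehicle, 230 and 265 at 4 mg/kg, and then 223 and 236 at 20 mg/kg (log2 change -1.32, adjusted p = 0.289), with vehicle replicate 2 far above the rest. Of 16 genes of this family 9 were tested, 1 was lower and none higher at 20 mg/kg than with vehicle. Over all tested genes 2.07% were called lower and 2.26% higher.

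Of the prostaglandin genes beside PTGS2 none passed in any comparison. The constitutive cyclooxygenase PTGS1 and the prostaglandin E2 receptors PTGER2 and PTGER4 read at most 4.84, 4.58 and 4.79 and were not tested. PTGES, which makes prostaglandin E2, read 65.5 and 87.6 with vehicle, 64.4 in both 4 mg/kg arrays and 61.6 and 64.4 at 20 mg/kg. HPGD, which breaks prostaglandins down, read 6679 and 6607 with vehicle, 7497 and 8985 at 4 mg/kg, and then 7836 and 6286 at 20 mg/kg. In all, 7 of 18 genes were tested, and their median log2 change at 20 mg/kg against vehicle was -0.13. None was lower or higher there at an unadjusted p under 0.05, beside 11.5% and 12.7% of all tested genes.

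The proteases that release CX3CL1 from the membrane did not pass either. ADAM10 read 3356 and 3067 with vehicle, 4275 and 4872 at 4 mg/kg, and then 4614 and 4900 at 20 mg/kg (log2 change 0.57, adjusted p = 0.0655). ADAM17 read 399 and 437 with vehicle, 350 and 628 at 4 mg/kg, and then 425 and 411 at 20 mg/kg (log2 change 0.00). ADAM10 was thus higher in each treated array than in either vehicle array, while the groups of ADAM17 overlapped. Both arrays lay above both vehicle arrays for 24.5% of all tested genes at 20 mg/kg and 22.8% at 4 mg/kg. Of the 4 shedding proteases all were tested, and 2 were higher at 20 mg/kg than with vehicle at an unadjusted p under 0.05, beside 12.7% of all tested genes.

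Among 16 NF-kB, AP-1 and C/EBP regulators 14 were tested, and 2 fell at 20 mg/kg against vehicle, beside 2.07% of all tested genes. CEBPD, a C/EBP factor that cytokines induce, read 7131 and 9914 with vehicle, 5634 and 5690 at 4 mg/kg, and then 2361 and 2234 at 20 mg/kg (log2 change -1.87, SE 0.18, adjusted p = 0.0326). FOSL2, an AP-1 subunit, read 973 and 955 with vehicle, 668 and 684 at 4 mg/kg, and then 799 and 769 at 20 mg/kg (log2 change -0.30, SE 0.03, adjusted p = 0.0382). CEBPD stepped down with dose, whereas FOSL2 was lowest at 4 mg/kg. At an unadjusted p under 0.05, 6 of the 14 were lower and 1 higher, beside 11.5% and 12.7% of all tested genes. Besides CEBPD and FOSL2 the lower ones were CEBPB at -0.52 (adjusted p = 0.0554), JUNB at -1.37 (adjusted p = 0.195), RELA at -0.35 (adjusted p = 0.194) and NFKB2 at -0.21 (adjusted p = 0.202). The higher one was REL, an NF-kB subunit, at 0.96 (adjusted p = 0.112). These 5 genes were named after their values were seen. NFKB2 read 28.8 in every treated array, so its p-value rests partly on ties. JUNB read 753 and 1622 in the vehicle arrays, which thus lay far apart.

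**Figure D5:**
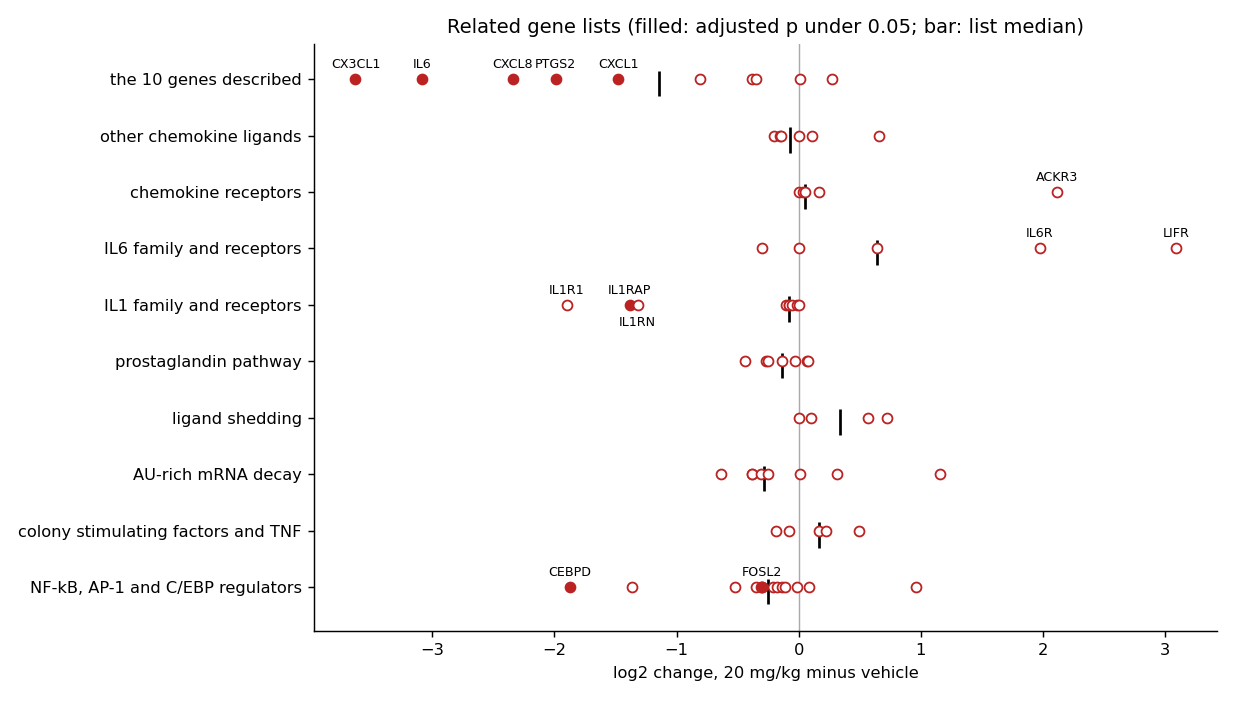
Log2 change at 20 mg/kg minus vehicle of the 10 genes and of the tested genes of 9 related lists; each point is a gene, filled where the adjusted p is under 0.05, and bars are list medians. Outside the 10 genes, IL1RAP, CEBPD and FOSL2 are filled, and ACKR3, IL6R and LIFR lie highest.

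By correlation over the 6 arrays with the mean standardised profile of the 10 genes, the tested genes most like it were TNPO1, JAG1, TNIP3, ETS1 and HDAC2, with r from 0.987 to 0.991. The 6 arrays share 3 dose groups, so these values describe the pattern only. That profile was highest in 4 mg/kg replicate 2 and lowest in the 20 mg/kg arrays. Standardising gives the flat IL1A the same weight as the other members, so its small dip in vehicle replicate 2 lowers the profile there. JAG1, a Notch ligand, read 5164 and 4437 with vehicle, 5100 and 5615 at 4 mg/kg, and then 3990 and 3741 at 20 mg/kg. ETS1, a transcription factor, read 884 and 728 with vehicle, 940 and 997 at 4 mg/kg, and then 574 and 604 at 20 mg/kg. Their changes were smaller than those of the called members, with log2 changes of -0.31 and -0.45 at 20 mg/kg. Each member is part of the profile, so its own r is raised by that. With this limit, CXCL8 was at r = 0.970, CXCL1 at 0.968, CXCL3 at 0.504 and IL1A at 0.0456.

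All 11 lung epithelial markers were tested in these tumours. NKX2-1 read between 2990 and 3422 and NAPSA between 5977 and 6784. The summed intensity of the list was 101244 and 112695 with vehicle, 106961 and 109144 at 4 mg/kg, and then 90706 and 97706 at 20 mg/kg. KRT18, a simple-epithelium keratin, fell at 20 mg/kg (log2 change -1.54, SE 0.18, adjusted p = 0.0416). It was the 1 marker of the 11 called, beside 2.07% of all tested genes called lower. At an unadjusted p under 0.05, 4 of the 11 were lower and 1 higher at 20 mg/kg than with vehicle. The shares of all tested genes were 11.5% lower and 12.7% higher. Beside KRT18 the lower ones were the keratins KRT8 at -0.88 (adjusted p = 0.0529), KRT7 at -0.92 (adjusted p = 0.163) and KRT19 at -0.34 (adjusted p = 0.131), and the higher one was the adhesion molecule EPCAM at 0.50 (adjusted p = 0.104). Leukocyte markers summed to between 140 and 144 in all 6 arrays, and CD163 and TYROBP were at the lowest value. Of 8 neutrophil markers CSF3R, MPO, ELANE, FPR1 and FCGR3B were within 1 log2 unit of the lowest value, while S100A8 and S100A9, which epithelial cells also make, were bright. That list summed to 71008 and 71271 with vehicle, 66843 and 69112 at 4 mg/kg, and then 71038 and 67857 at 20 mg/kg. Fibroblast markers summed to 36669 and 39431 with vehicle, 37597 and 36419 at 4 mg/kg, and then 35947 and 40334 at 20 mg/kg. COL1A1, which read between 31585 and 36324, made up most of each sum. PDGFRB was at the lowest value, and LUM, PDGFRA and THY1 were within 1 log2 unit of it. FAP was the 1 of 5 tested markers lower at 4 mg/kg than with vehicle at an unadjusted p under 0.05 (log2 change -0.63). None was higher there, beside 4.76% of all tested genes lower and 12.2% higher. Endothelial markers summed to 511 and 561 with vehicle, 566 and 459 at 4 mg/kg, and then 520 and 511 at 20 mg/kg, with VWF, CLDN5 and EMCN at the lowest value. The 18S rRNA control of the array, an RNA quality sign, stood at 1713 and 4058 with vehicle, 489 and 374 at 4 mg/kg, and then 573 and 637 at 20 mg/kg. The part of these keratins, of host cells and of this control reading in the results was not tested. In such bulk tumour RNA fewer cells that express a gene and less RNA per cell cannot be told apart.

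The falls of CX3CL1, IL6, CXCL8, PTGS2 and CXCL1 at 20 mg/kg against vehicle were not always called with 1 array left out. Their direction could not change, since both 20 mg/kg arrays lay below both vehicle arrays for each of these genes. Without either 20 mg/kg array none of the 5 genes passed, and CX3CL1 had an adjusted p of 0.0788 and 0.0795. Without vehicle replicate 2, the array with the highest 18S reading, CX3CL1, CXCL8 and PTGS2 passed, while IL6 (adjusted p = 0.0529) and CXCL1 (adjusted p = 0.101) did not. Without vehicle replicate 1 CXCL1 alone of the 5 lost its call (adjusted p = 0.0716). Leaving out either 4 mg/kg array changes only the estimate of the spread and left CX3CL1 as the 1 gene called, with IL6 at an adjusted p of 0.0594. The call of CX3CL1 between the doses was kept without 4 mg/kg replicate 1 (adjusted p = 0.0452), where CXCL2 passed as well (adjusted p = 0.0421). It was lost without any other single array, with adjusted p from 0.0760 to 0.174.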

How the data were processed

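Tumour RNA on 6 arrays was compared in 3 groups of 2. The authors deposited intensity values on a linear scale, 1 column per array. The submitters' processing notes name GCRMA and R 2.10.0. GCRMA corrects background, equalises arrays and summarises the probes of a set. The sources used here do not say which arrays were normalized jointly. Gene names came from the platform annotation. Of 54675 probe sets 41097 had 1 gene.

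Intensities were converted to log2, and the brightest probe set annotated to 1 gene alone stood for that gene. Genes with a mean log2 level of at least 4 were tested, 10271 in all, with limma 3.58.1 in R 4.3.3 (lmFit, eBayes, 6 arrays in 1 fit, two-sided, Benjamini-Hochberg over all genes). The fit had 3 residual and 0.723 prior degrees of freedom, and was tested on simulated data. The simulated noise was normal and held no exact ties, which 32.3% of tested genes had in at least 1 group. The simulation thus does not cover the effect of ties. The number of arrays limits the precision. A second fit took all 16900 single-gene probe sets above that level.

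All 10 members are named. Of the related lists, genes past the threshold, the paired receptors and enzymes, and the 5 most alike genes are named. Others were named outside this rule, among them CXCL6, CCL28, LIFR and most cell type markers. Some of these others are marked as chosen after their values were seen. Members and lists were chosen with earlier results of these data known. Left-out arrays, a replicate block, other filters, probe sets, a pseudocount and scalings were tried. No human sequences or coordinates were used here.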

Additional observations from a re-analysis of the deposited data

How the results depend on the processing

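Of the 10 genes, 5 were called at 20 mg/kg against vehicle. The number was between 0 and 4 with 1 array left out, 2 with the replicate number as a block, 1 with no level filter, 1 with the 4 compared arrays alone and 6 with centred arrays, where CCL20 passed too. With the replicate block CX3CL1 and IL6 stayed called. Same-numbered arrays correlated in their deviations at r = 0.146 between vehicle and 4 mg/kg, -0.118 between vehicle and 20 mg/kg and 0.127 between the doses. With 2 arrays a group these values cannot settle whether the numbers pair the arrays. At 4 mg/kg against vehicle 0 genes were called, and 2 with centred arrays, CXCL3 higher and IL6 lower. At 20 mg/kg against 4 mg/kg 1 gene was called. The number was between 0 and 2 with 1 array left out, 0 with the replicate block, with no level filter, with the next brightest probe set and with the 4 compared arrays, 6 after quantile normalization and 7 with centred arrays.

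Genes called over the whole array moved too, from 445 at 20 mg/kg against vehicle to between 5 and 1958, from 6 at 4 mg/kg to between 0 and 766, and from 38 between the doses to between 0 and 494. Of the genes called at 4 mg/kg 50% were higher, against 73.2% after quantile normalization and 67.5% with centred arrays. Between the doses the shares were 34.2%, 45.3% and 46.0%.

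Values that changed sign were not called. IL1A at 20 mg/kg against vehicle was at -0.0303 with its next brightest probe set, -0.0114 with its probe sets averaged, -0.0267 after quantile normalization and -0.0243 with centred arrays. At 4 mg/kg IL1A was at -0.0569 after quantile normalization and -0.0913 with centred arrays, CXCL5 at -0.0861 with its next brightest probe set, and CXCL8 at -0.86 with its dimmer probe set and -0.23 with both averaged. With 1 array left out, CCL20 at 4 mg/kg ran from -0.27 to 0.11 and PTGS2 from -0.37 to 0.29. The cause of these shifts was not tested. With log2(value + 16) IL6 at 20 mg/kg was at -2.14, still called. Intensities near the lowest value limit what the dim receptors can show. How much of the IL6 reading at 20 mg/kg and of the tied IL1A readings is background was not measured.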

Other observations

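Genes of AU-rich mRNA decay, whose products bind the transcripts of many cytokines, showed no call in any comparison (limma, 8 of 9 tested). At an unadjusted p under 0.05, 2 of the 8 were lower and 1 higher at 20 mg/kg than with vehicle, beside 11.5% and 12.7% of all tested genes. The lower ones were HNRNPD at log2 -0.63 and TIAL1 at -0.25, and the higher one was TIA1 at 1.15.

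Of 9 genes for colony stimulating factors, TNF family ligands and VEGFA 5 were tested and none passed. At 20 mg/kg 1 of the 5, TNFSF10 at log2 0.50, was higher than with vehicle and 0 lower at an unadjusted p under 0.05, beside 12.7% and 11.5% of all tested genes. TNF and CSF3, the granulocyte colony stimulating factor, were listed at the lowest value in every array. VEGFA, an angiogenic factor, read 8339 and 6743 at 20 mg/kg, against 7468 and 6001 with vehicle, and these groups overlapped. The genes named here were chosen for naming after their values were seen.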
